A study of Mus musculus with 2 samples.

Results

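The collagen folding and cross-linking enzymes described here were 10 genes taken by name, with earlier results of these data known, among the 28380 genes counted in both libraries. Serpinh1, Ppib, Fkbp10, Crtap, P3h1, P4ha2, Plod1, Plod2, Plod3 and Lox were all found in both count tables. The counts came from single-cell RNA sequencing (scRNA-seq) of the long bones (femur and tibia) of mice aged 30 days, with 1 library per group. Each library pooled a pair of C57BL/6 mice of both sexes. The Dach1OE library came from mice carrying Apj CreERT2 and Dach1OE +/f, in which tamoxifen switches on the transcription factor DACH1 in endothelial cells (ECs) that express the apelin receptor Aplnr, also called Apj. The Control library came from littermates carrying Dach1OE +/f without Cre, and both groups had received tamoxifen in the first days after birth. The Cre line acts in Aplnr-expressing ECs, so bone-forming and cartilage cells of the Dach1OE mice were not the intended site of the transgene. Cells were kept with 500 to 6000 genes and under 25% mitochondrial UMIs, a UMI (unique molecular identifier) being 1 counted molecule of RNA.

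Collagen chains are made in the endoplasmic reticulum, where they are modified before they wind into a triple helix. Prolyl 4-hydroxylases such as P4HA2 modify proline so that the helix is stable, and the complex of P3H1, CRTAP and PPIB modifies a further proline and, through PPIB, turns proline bonds. Lysyl hydroxylases (PLOD1, PLOD2 and PLOD3) modify lysine, and PLOD2 with its partner FKBP10 acts mainly on the ends of the chains that later form cross-links. SERPINH1, the collagen chaperone HSP47, binds the finished helix on its way out of the cell. LOX acts outside the cell and oxidises lysine, which starts the cross-links. Osteoblasts (OBs), osteocytes (OCYs) and chondrocytes make large amounts of collagen, ECs mainly that of their basement membrane, and inherited loss of several of these enzymes is known from brittle bone disease.

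The Control library held 26466 kept cells and 143986818 UMIs over all its cells, and the Dach1OE library 29317 and 166999989. The libraries shared 1049 cell indices. Dach1 checked the labels, at 5.03 CPM (counts of a gene per 1000000 UMIs of the cells named) in Control and 206 CPM in Dach1OE ECs, against 3.07 and 2.94 CPM in OBs. Clusters named from fixed markers gave 1287 OBs in Control and 1851 in Dach1OE, 159 and 207 OCYs, 2384 and 941 diaphyseal mesenchymal stromal cells (dpMSCs, the Adipoq- and Lepr-expressing stroma of the marrow), 1143 and 869 metaphyseal mesenchymal stromal cells (mpMSCs), 3394 and 4715 chondrocytes and 8874 and 9344 ECs. The makeup of the ECs differed between the libraries. Marrow ECs (bmECs) were 64.4% of Control and 17.6% of Dach1OE ECs, arterial ECs (aECs) 4.69% and 13.4%, and a cluster led by Scgb3a1, which came mostly from the Dach1OE library, 3.0% and 39.4%. With 1 library per group there was no replicate, so no test was run. Levels are CPM with exact Poisson 95% intervals, and differences are log2 ratios with exact 95% intervals, all covering counting error only.

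In GRCm38 coordinates of GENCODE vM21, Serpinh1 (ENSMUSG00000070436) lies at chr7:99345376-99353239 on the minus strand and overlaps no other gene. Plod1 lies at chr4:147909753-147936767, minus strand, and P3h1 at chr4:119232915-119248975, plus strand. P4ha2 lies at chr11:54100095-54131665 and Fkbp10 at chr11:100415697-100424824, both on the plus strand. Ppib (chr9:66060222-66066623, plus), Plod2 (chr9:92542223-92608428, plus) and Crtap (chr9:114375134-114390675, minus) share a chromosome without being neighbours. Plod3 lies at chr5:136987019-136996648, plus strand. Opposite-strand genes overlap Plod2, Plod3, Crtap, Ppib, Fkbp10 and Lox, and the strand setting of the counting was not stated, so reads of Snx22 within Ppib or of Nt5c3b within Fkbp10, for example, may be counted with the member.

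Most members had a similar order of levels over the cell types, so their promoters were read for shared letters. The RefSeq promoter table (GRCm38.p6, 250 bases before to 50 after the start) held 7 of the 10 members in 8 promoters, P3h1 having 2. The core ACGTG, searched on both strands (CACGT on the other), is the centre of the element bound by the endoplasmic reticulum stress factors ATF6 and XBP1 and also by other factors. It stood in the promoters of 5 members (P3h1, Plod3, Serpinh1, Ppib and P4ha2), against 19.6% of all 32851 promoters. Of the 8 member promoters, 4 held CCAAT (37.4% of all), 7 held GGGCGG (35.7% of all) and 2, those of Plod1 and Crtap, held TATAAA (13.6% of all). None held the full endoplasmic reticulum stress element, which was in 0.119% of all promoters. These are matches of letters in a window, not sites. The member promoters were also richer in G and C, with a median of 61.0% against 52.7%. The 3 promoters below with ACGTG or CACGT in capitals belong to members that were higher in chondrocytes than in ECs, and the fourth to Plod1, which was high in ECs and held neither run. The letters did not follow the levels throughout, since Crtap, which was also higher in chondrocytes than in ECs, held neither run, nor did 1 of the 2 promoters of P3h1. Serpinh1 is at chr7:99353190-99353489 (minus strand), Ppib at chr9:66059919-66060218 (plus), P4ha2 at chr11:54100674-54100973 (plus) and Plod1 at chr4:147936727-147937026 (minus).
Serpinh1: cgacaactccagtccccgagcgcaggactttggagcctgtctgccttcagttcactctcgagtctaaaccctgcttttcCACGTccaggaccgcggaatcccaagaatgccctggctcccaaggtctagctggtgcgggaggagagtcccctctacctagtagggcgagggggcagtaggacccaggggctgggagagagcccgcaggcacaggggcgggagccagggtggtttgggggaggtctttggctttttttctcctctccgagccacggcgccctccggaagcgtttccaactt
Ppib: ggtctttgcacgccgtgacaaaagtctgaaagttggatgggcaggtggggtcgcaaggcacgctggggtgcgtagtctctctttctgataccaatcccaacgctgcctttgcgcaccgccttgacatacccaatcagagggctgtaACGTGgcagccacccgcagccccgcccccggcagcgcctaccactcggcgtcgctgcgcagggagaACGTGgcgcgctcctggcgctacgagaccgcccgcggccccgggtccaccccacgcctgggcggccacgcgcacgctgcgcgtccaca
P4ha2: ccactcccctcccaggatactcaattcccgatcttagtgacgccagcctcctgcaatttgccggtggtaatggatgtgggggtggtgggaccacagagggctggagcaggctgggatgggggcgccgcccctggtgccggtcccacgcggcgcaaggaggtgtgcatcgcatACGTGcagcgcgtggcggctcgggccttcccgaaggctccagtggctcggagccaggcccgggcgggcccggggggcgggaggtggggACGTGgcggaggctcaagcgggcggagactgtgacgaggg
Plod1: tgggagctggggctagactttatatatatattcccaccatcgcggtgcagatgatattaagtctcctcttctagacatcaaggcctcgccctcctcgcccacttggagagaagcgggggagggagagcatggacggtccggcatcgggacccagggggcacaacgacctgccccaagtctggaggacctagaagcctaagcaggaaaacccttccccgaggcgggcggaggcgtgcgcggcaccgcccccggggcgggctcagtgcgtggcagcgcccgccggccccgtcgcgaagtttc

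Over 20 named cell types and subtypes with at least 50 cells in each library, 8 of the 10 members had a pair of chondrocyte subtypes at the top of the order of mean levels. The exceptions were Plod1, whose first 6 places were all EC subtypes, and Lox, which was highest in OCYs, then OBs, then dpMSCs. These levels are shares of all UMIs, of which collagen chains took 34.8% and 34.2% in OBs and 10.3% and 10.7% in proliferating chondrocytes. The order with collagen chains left out of the totals was not taken, so for Serpinh1, Fkbp10 and Crtap no order between OBs and chondrocytes is read. Of the 19 steps between neighbours in an order, the values of the libraries overlapped in 15 for P4ha2 and 13 for Plod3, so much of their order lies within the spread of the libraries, and in 6 for Plod2. How far a level spread over the subtypes also differed by gene. The mean of the libraries was 449-fold higher in OCYs than in proliferating chondrocytes for Lox, and 68.6-fold higher in proliferating chondrocytes than in tip-like ECs for Plod2. It was 18.4-fold for Serpinh1, 17.7-fold for P3h1, 15.8-fold for Fkbp10 and 13.5-fold for Plod1. The narrowest spans were those of Crtap (7.07-fold), Ppib (5.32-fold) and Plod3 (4.88-fold).

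**Figure D1:**
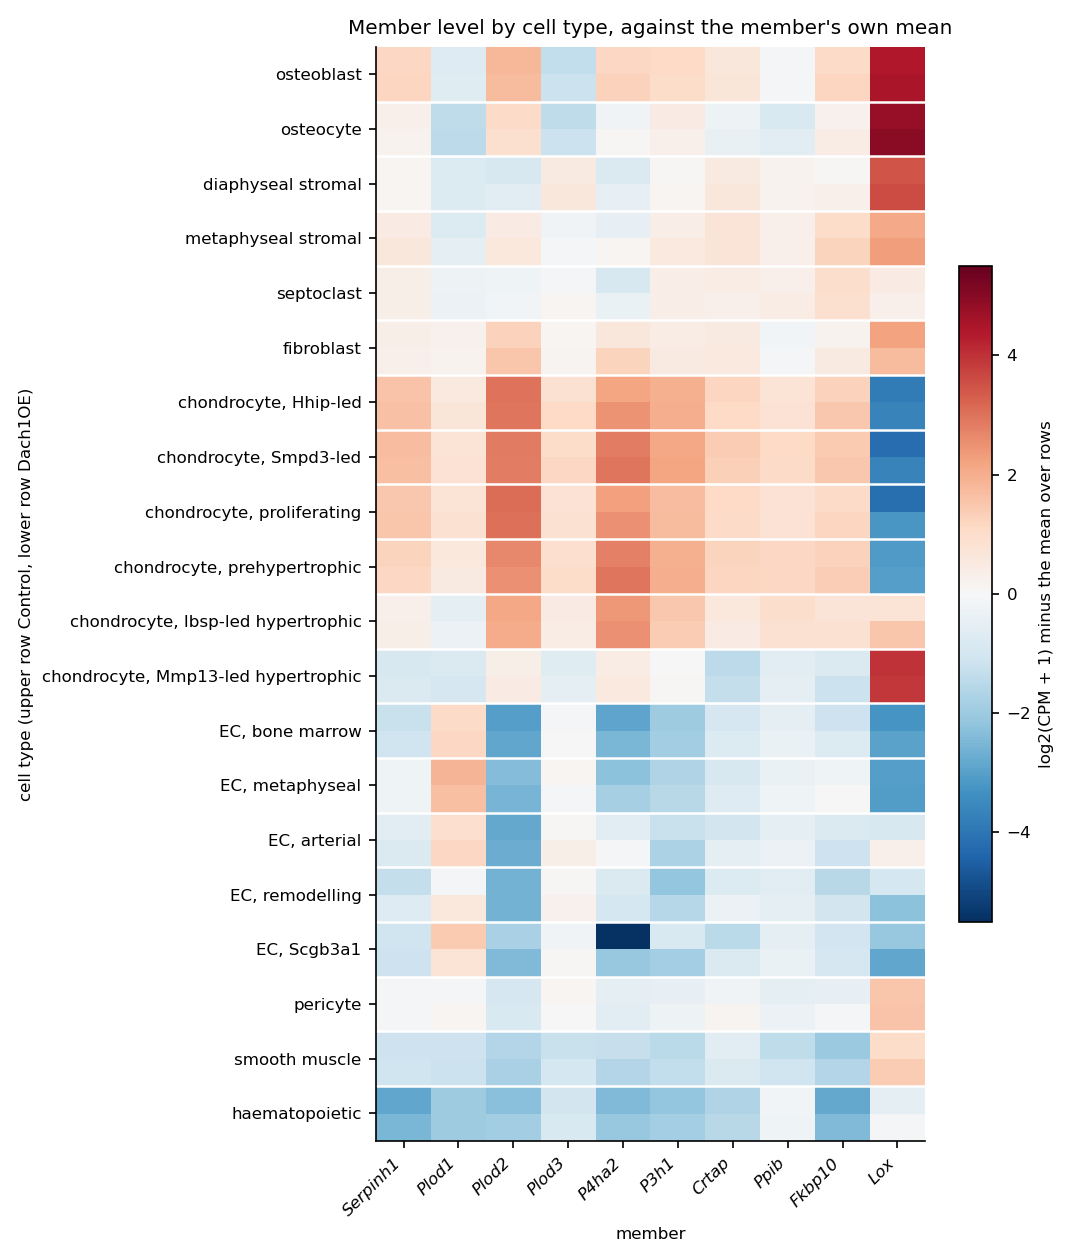
Heat map of the 10 members (columns) over 20 cell types and clusters (rows, the upper line of each pair Control and the lower Dach1OE). The rows are not the 20 ranked subtypes, since they show the Hhip-led, Smpd3-led, Ibsp-led and Mmp13-led chondrocyte clusters apart. Colour is log2(CPM + 1) less the member's mean over all 40 values. By the mean of the libraries, a chondrocyte row is highest for 8 members, the metaphyseal EC row for Plod1, and the osteocyte row, then the osteoblast row, for Lox.

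Among the members of the chaperone and cis-trans isomerase group, Serpinh1 stood at 3831 CPM in Control OBs and 3911 in Dach1OE OBs. It was at 2132 and 2002 CPM in OCYs, 1875 and 1843 in dpMSCs, and 888 and 991 in ECs. Chondrocytes as a class held 4550 and 4531 CPM, and haematopoietic cells, which make no fibrillar collagen, 237 and 300 CPM. The collagen-making classes thus lay above the ECs in both libraries, and the ranges did not overlap. Fkbp10 followed a similar course, at 310 and 340 CPM in OBs, 354 and 377 in chondrocytes, 155 and 184 in dpMSCs, 76.5 and 93.0 in ECs and 20.4 and 27.0 in haematopoietic cells. Ppib, a cyclophilin of the endoplasmic reticulum used well beyond collagen, varied least between classes, at 178 and 180 CPM in OBs, 130 and 147 in ECs and 166 and 156 in haematopoietic cells. Its values in chondrocytes (374 and 359 CPM) still lay above all of these.

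The prolyl hydroxylase members separated bone and cartilage from endothelium more sharply. P3h1 was at 116 and 110 CPM in OBs, 206 and 207 in chondrocytes and 56.5 and 56.9 in dpMSCs, against 14.1 and 14.6 in ECs and 11.4 and 13.8 in haematopoietic cells. Its partner Crtap showed a smaller contrast, with 420 and 440 CPM in OBs, 620 and 589 in chondrocytes, 147 and 166 in ECs and 85.0 and 93.6 in haematopoietic cells. P4ha2, a catalytic subunit of prolyl 4-hydroxylase, was at 257 and 283 CPM in chondrocytes and 94.6 and 101 in OBs but only 7.27 and 14.0 in ECs. Haematopoietic cells held 6.97 and 9.26 CPM of P4ha2, so the EC level was like that of a cell type not known to need it in Control and above it in Dach1OE.

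The 3 lysyl hydroxylases did not share a pattern. Plod2 was at 1819 and 1765 CPM in chondrocytes, 942 and 899 in OBs, 547 and 486 in OCYs and 142 and 175 in dpMSCs, and at 36.0 and 41.9 in ECs, below the 52.3 and 69.0 of haematopoietic cells. Plod1 differed mainly in the ECs, which came first, with 290 and 269 CPM there, 188 and 193 in chondrocytes, 77.5 and 78.5 in OBs, 73.9 and 73.8 in dpMSCs and 31.7 and 32.1 in haematopoietic cells. Among ECs it was highest in metaphyseal ECs (mpECs), at 462 and 401 CPM, with no overlap with the next subtype. Plod3, which also glycosylates hydroxylysine, was at 144 and 153 CPM in chondrocytes, 110 and 120 in dpMSCs and 74.1 and 82.0 in ECs. It was lowest in OBs (30.2 and 33.9) and OCYs (29.5 and 33.4), below the 38.7 and 43.3 of haematopoietic cells. Plod2 and Plod3 thus ranked OBs and dpMSCs in opposite order in both libraries. Whether the haematopoietic level is background was not tested, so differences of Plod3 within and between OBs and OCYs are not told from background. Collagen chains took 34.8% and 34.2% of UMIs in OBs against 1.19% and 1.70% in haematopoietic cells. The order of these Plod3 levels with the chains left out of the totals was not taken.

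Lox was at 1681 and 1876 CPM in OCYs, 1274 and 1338 in OBs, 670 and 718 in dpMSCs, 408 and 444 in proliferating stromal cells (pBMSCs), 255 and 295 in mpMSCs and 82.4 and 73.1 in septoclasts (SCs), the stromal cells that remove cartilage matrix. The values of the libraries did not overlap between any of the first 4 places and the next. The haematopoietic level was 41.0 and 56.7 CPM, and ECs (8.24 and 16.9 CPM) and chondrocytes (28.2 and 38.6) lay below it in each library. A class value at or below that level is not read as expression in the class at large, nor as its absence. OB markers summed to 1010 and 1226 CPM in haematopoietic cells against 129 and 196 in ECs, and whether the haematopoietic level is background was not tested. Hypertrophic chondrocytes, which held 903 of the 1024 chondrocyte UMIs of Lox in Control and 1661 of 1862 in Dach1OE, and Dach1OE aECs, with 319 of the 500 EC UMIs, lay above it. Per 1000 UMIs of the OB markers, Lox gave 40.2 and 46.5 UMIs in OBs, 40.6 and 46.2 in haematopoietic cells, 161 and 201 in dpMSCs, 78.8 and 103 in OCYs, 63.9 and 86.0 in ECs, 7.44 and 10.5 in chondrocytes and 69.7 and 53.1 in an unnamed cluster led by Rhag. In each library the ratio of the haematopoietic cells was near that of OBs. The ratio of the Rhag-led cluster lay above that of OBs, by less in Dach1OE than in Control. That cluster held only 80 Lox UMIs of 14131301 in Control and 77 of 18134613 in Dach1OE, a smaller share than in ECs.

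**Figure D2:**
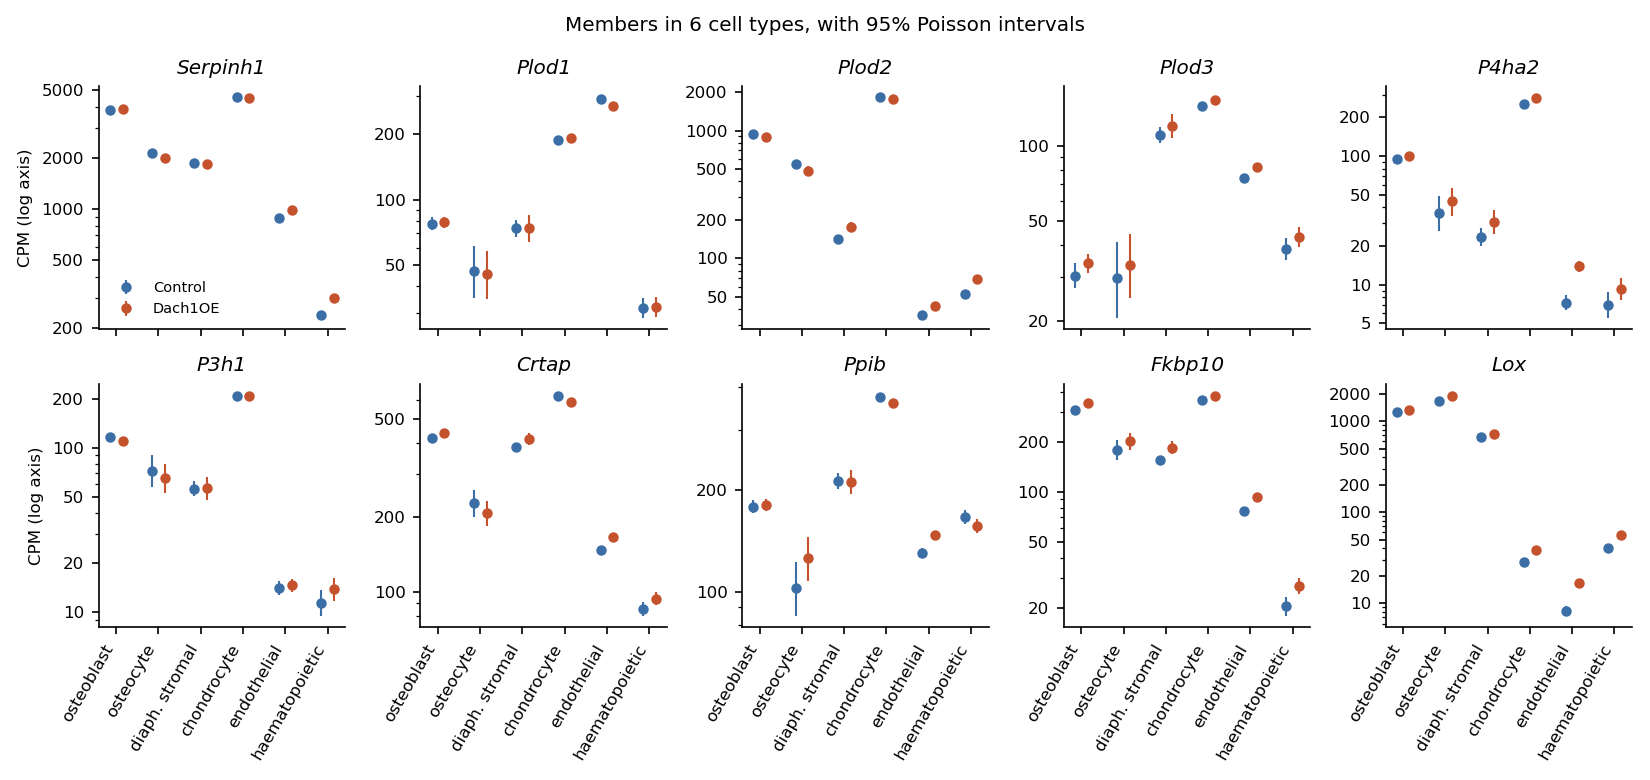
Level of each member in 6 cell types, in CPM on a log axis, with 1 point per library and exact Poisson 95% intervals. Plod1 runs from 77.5 CPM in Control OBs to 290 in Control ECs, Plod2 the other way from 942 to 36.0, and the libraries differ most for P4ha2 and Lox in ECs.

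The question of which enzymes set OBs apart was put to each library on its own. Against ECs, 7 of the 10 members were at least 2-fold higher in OBs in Control and 7 in Dach1OE, where 12.0% of 15069 and 11.7% of 15197 genes tested were, and Plod1 and Plod3 were at least 2-fold lower in both, where 50.3% and 52.8% of genes were. The log2 ratio was 7.27 and 6.31 for Lox, 4.71 and 4.42 for Plod2, 3.70 and 2.86 for P4ha2, 3.04 and 2.92 for P3h1, 2.11 and 1.98 for Serpinh1, 2.02 and 1.87 for Fkbp10 and 1.51 and 1.41 for Crtap. Ppib fell short, at 0.45 and 0.30. Plod1 was at -1.90 and -1.78 and Plod3 at -1.29 and -1.27. Collagen chains alone took 34.8% and 34.2% of all UMIs in OBs and under 1% in ECs (0.547% and 0.762%), and the median gene was -1.01 and -1.07 in OBs over ECs. Relative to that median, 8 members were at least 2-fold higher and none lower in either library, so neither Plod1 nor Plod3 was 2-fold lower on that scale. With collagen chains left out of the totals, Plod1 was at -1.29 and -1.18 and Plod3 at -0.68 in both libraries, so Plod1 stayed past the line. Relative to the median gene Plod1 was at -0.89 and -0.70 and Plod3 at -0.28 and -0.20, both still lower. Cells of 1 sex could be told by Xist or Y-linked UMIs, and since each pool held both sexes they stand for separate mice, with sex and mouse going together. In all 4 sets of cells (2 libraries, 2 sexes) the same 7 members were higher and the same 2 lower, with ranges of 4.49 to 4.83 for Plod2 and 1.96 to 2.11 for Serpinh1.

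Against dpMSCs the contrast was narrower. In Control, 4 members were at least 2-fold higher in OBs and in Dach1OE 3, where 8.68% of 13141 and 9.18% of 12763 genes were. Plod2 led with 2.73 and 2.36, followed by P4ha2 at 2.0 and 1.71, P3h1 at 1.04 and 0.95, and Serpinh1 at 1.03 and 1.09. Fkbp10 (1.0 and 0.89) and Lox (0.93 and 0.90) lay at or just under the 2-fold line. As shares of all UMIs, Crtap (0.13 and 0.08), Plod1 (0.07 and 0.09) and Ppib (-0.25 and -0.23) differed little, and Plod3 was lower, at -1.86 and -1.82. The median gene was -0.97 and -0.94 here, and relative to it 8 members were at least 2-fold higher and none lower. With collagen chains left out of the totals, 6 members were at least 2-fold higher and 1 lower in each library. Crtap was then at 0.71 and 0.65, Plod1 at 0.65 and 0.66 and Ppib at 0.34 in both, so Ppib changed direction. Within cells of 1 sex, Plod2 and P4ha2 were past 2-fold and Plod3 below it in all 4 sets.

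The OBs themselves fell into a cluster led by Bglap2 (792 and 1159 cells) and one led by Fos, Panx3, Notum and Cthrc1 (495 and 692 cells). The second held more Plod3 (log2 ratio 0.66 in Control and 0.64 in Dach1OE), Ppib (0.63 and 0.58), Fkbp10 (0.63 and 0.52) and Serpinh1 (0.43 and 0.37), and less Plod2 (-0.48 and -0.40), with Lox nearly level at -0.11 and -0.10. OCYs, the matrix-embedded cells that derive from OBs, were named from Dmp1 (4073 and 3552 CPM) and Phex (2223 and 2217 CPM). Against OBs they held less Serpinh1 (-0.85 and -0.97), Plod2 (-0.79 and -0.89), P4ha2 (-1.38 and -1.18) and Crtap (-0.88 and -1.08). Plod3 was at -0.04 (-0.59 to 0.48) and -0.02 (-0.48 to 0.41), intervals that held 0. Lox was higher in OCYs by 0.40 (0.33 to 0.47) and 0.49 (0.43 to 0.55), and by 0.38 to 0.58 in the 4 sets of cells of 1 sex. The median gene was at 0.04 and 0.08 in this comparison.

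Other stromal cells ordered the members in their own way. From dpMSCs to mpMSCs, Plod2 was higher by 1.37 and 1.17 and Lox lower, at -1.39 and -1.28. From mpMSCs to SCs, Lox was lower again, at -1.63 and -2.01, while Serpinh1 (2165 and 2151 CPM) and Fkbp10 (295 and 277 CPM) in SCs stayed near the values of mpMSCs (2397 and 2680 CPM for Serpinh1, 308 and 349 CPM for Fkbp10). Against dpMSCs, SCs thus held more Serpinh1 and Fkbp10 and far less Lox.

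Chondrocytes held more than OBs of Plod3 (2.25 and 2.17), P4ha2 (1.44 and 1.49), Plod1 (1.28 and 1.30), Ppib (1.07 and 1.0), Plod2 (0.95 and 0.97), P3h1 (0.83 and 0.91) and Crtap (0.56 and 0.42) as log2 ratios, with Serpinh1 (0.25 and 0.21) and Fkbp10 (0.19 and 0.15) nearly level and Lox far lower (-5.5 and -5.12). Collagen chains took 11.5% and 11.8% of their UMIs against 34.8% and 34.2% in OBs. These ratios were not taken with collagen chains left out of the totals, so no direction is read for Serpinh1, Fkbp10 and Crtap. Within the growth plate, cells run from proliferating through prehypertrophic to hypertrophic chondrocytes, which carry Col10a1 (60927 and 71477 CPM in the Ibsp-led hypertrophic cluster). One cluster led by Hhip (657 and 1101 cells) and one led by Gm26786 and Smpd3 (879 and 1212 cells, called Smpd3-led here) did not carry enough fixed markers to be named further. Serpinh1 was at 5196 and 5249 CPM in Hhip-led cells, 5587 and 5445 in Smpd3-led cells, 4907 and 4943 in proliferating and 4087 and 3855 in prehypertrophic cells. It stood at 2130 and 2173 CPM in the Ibsp-led hypertrophic cluster and 948 and 999 CPM in the Mmp13- and Spp1-led one. From proliferating cells onward it was lower in each cluster in the order given, with no overlap of the libraries. Whether the Ibsp-led and Mmp13-led clusters are successive stages was not tested.

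Hypertrophic cells of both clusters together were compared with Hhip-led cells. In each library 3 members were at least 2-fold lower, where 11.3% of 11507 genes in Control and 12.2% of 12354 in Dach1OE were, namely Serpinh1 (-1.41 and -1.37), Plod1 (-1.07 and -1.04) and Plod2 (-1.02 and -1.03). Fkbp10 (-0.70 and -0.79), Crtap (-0.77 and -0.79), P3h1 (-0.65 and -0.75) and Plod3 (-0.53 and -0.76) were lower by less than that. P4ha2 (0.05 and -0.08) and Ppib (0.09 and -0.05) were nearly level, and Lox was higher by 6.11 and 6.10. Relative to the median gene (-0.19 and -0.18), 1 member remained 2-fold lower and 1 higher. Within cells of 1 sex, Serpinh1 was past the 2-fold line in all 4 sets, and Lox was higher by 5.5 to 7.03.

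P4ha2 and Ppib were higher in prehypertrophic than in Hhip-led cells. The prehypertrophic cluster was led by Egr2, Atf3 and Zfp36, at a median of 14851 UMIs per cell against 8112 in Hhip-led cells. At resolution 0.8 a further cluster of 905 cells, led by Slc8a3, also carried 4 of 4 prehypertrophic markers. The part of these differences in the levels was not tested. Ppib was at 313 and 322 CPM in Hhip-led, 417 and 414 in prehypertrophic, 367 and 335 in Ibsp-led and 120 and 129 in Mmp13-led cells. P4ha2 was at 191 and 237 CPM in Hhip-led, 207 and 242 in proliferating and 298 and 333 in Smpd3-led cells, and at 296 and 333 CPM in prehypertrophic cells, a log2 ratio of 0.64 and 0.49 over Hhip-led cells. It stayed at 221 and 245 CPM in the Ibsp-led hypertrophic cluster and was at 55.6 and 61.5 CPM in the Mmp13-led one. Lox was at 3.21 and 3.75 CPM in Hhip-led cells, 5.89 and 6.47 in prehypertrophic cells, 101 and 174 in the Ibsp-led and 956 and 880 in the Mmp13-led cluster. Both hypertrophic values lay above the haematopoietic level. The Mmp13-led cluster (110 and 132 cells) held only 101 and 191 CPM of Sox9, the main cartilage transcription factor, against 1096 and 882 in the Ibsp-led one, and its chondrocyte markers summed to 7106 and 8665 CPM against 47232 and 41980. Its osteocyte markers summed to 1121 and 858 CPM against 283 and 336 and its OB markers to 11044 and 9295 CPM against 9883 and 10302. Those of hypertrophic chondrocytes were at 110266 and 119101 CPM against 69980 and 81773. That list named both clusters and holds Mmp13 and Spp1, so its sum is no check of the name. The Mmp13-led cluster also carried 3 of 6 septoclast markers. Collagen chains took 2.70% and 2.90% of its UMIs against 11.6% of those of the Ibsp-led cluster in each library. Against the Ibsp-led cluster, Lox was higher by 3.24 and 2.34 there, and 8 members in Control and 7 in Dach1OE were at least 2-fold lower, where 9.42% of 9516 and 8.76% of 10436 genes were, among them Crtap (-2.03 and -1.77), Plod2 (-1.80 and -1.61) and Serpinh1 (-1.17 and -1.12). Whether cells of another type in that cluster bear on this was not tested.

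**Figure D3:**
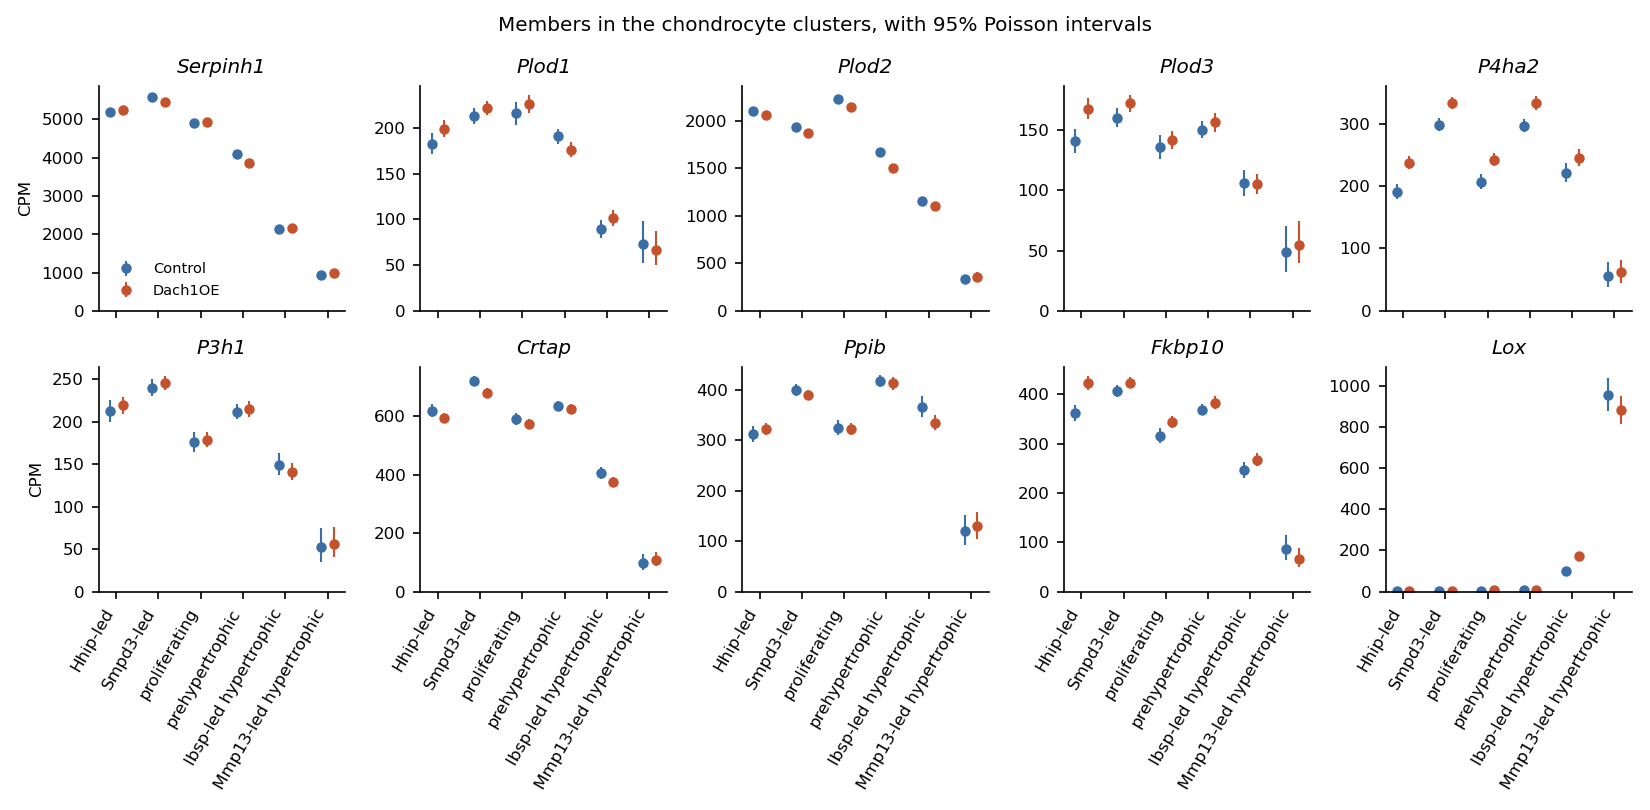
Level of each member in 6 chondrocyte clusters, in CPM from 0, with 1 point per library and exact Poisson 95% intervals. Serpinh1 runs from 5196 CPM in Control Hhip-led cells to 948 in the Control Mmp13-led hypertrophic cluster, while Lox runs from 3.21 to 956 CPM and P4ha2 is highest in Smpd3-led and prehypertrophic cells.

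ECs gave low levels of most members but clear differences between their subtypes. mpECs held more Serpinh1 than bmECs (1463 and 1454 CPM against 733 and 819, log2 ratio 1.0 and 0.83), and Fkbp10 (0.92 and 0.76) and Plod1 (0.79 and 0.52) were also higher. In aECs against bmECs, P4ha2 was higher by 2.53 and 2.59 and Lox by 2.58 and 3.42. P4ha2 in aECs, at 27.6 and 38.9 CPM, lay above the haematopoietic level in both libraries. Lox in aECs was at 31.9 CPM in Control, below the haematopoietic 41.0, and at 73.0 CPM in Dach1OE, above the 56.7 there. The markers of stromal cells summed to 1876 and 3016 CPM in aECs and those of smooth muscle to 48.6 and 104 CPM. The stromal list holds Cxcl12, which the study reported as high in remodelling ECs. Its sum in ECs is thus not a measure of stromal RNA alone. The part of these markers in the Lox value was not tested.

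The 2 libraries were then compared within each class. In OBs no member was 1.5-fold higher or lower, where 9.36% of 13180 genes were. The sum over the 10 members was 7274 CPM in Control and 7432 in Dach1OE (log2 ratio 0.03). Fkbp10 was at 0.13 (0.07 to 0.20), Plod3 at 0.16 (-0.04 to 0.38), whose interval held 0, and Plod2 at -0.07 (-0.11 to -0.03). Fkbp10 was higher in cells of each sex, by 0.15 in Xist cells and 0.12 in Y cells. Serpinh1, at 0.03 (0.01 to 0.05) over all cells, was at -0.08 in Xist cells and 0.17 in Y cells. Its direction thus differed between Xist and Y cells, in which sex and mouse go together. Lox was at 0.07 (0.04 to 0.10) in OBs and 0.16 (0.07 to 0.24) in OCYs. All of these lie well inside the 1.5-fold line.

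In chondrocytes no member passed 1.5-fold either, where 11.1% of 16544 genes did, and the sum was 8539 and 8493 CPM. Crtap (-0.08), P4ha2 (0.14), Fkbp10 (0.09) and Plod2 (-0.04) were all within that line. Lox over all chondrocytes was at 0.45 (0.34 to 0.56). In the Ibsp-led hypertrophic cluster it was at 101 and 174 CPM, a log2 ratio of 0.78 (0.60 to 0.96), with 0.42 in Xist cells and 1.10 in Y cells. The Mmp13-led cluster showed no such difference, with 956 and 880 CPM.

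Stromal cells as a class gave no member past 1.5-fold, where 18.0% of 15794 genes passed, but their sum was 5377 CPM in Control and 6179 in Dach1OE (0.20). Lox and Plod2 were each at 0.28, Serpinh1 at 0.20, P4ha2 at 0.45 (0.35 to 0.55) and Plod3 at -0.24 (-0.35 to -0.14). The makeup of the class differed, since OBs were 22.7% of Control and 40.0% of Dach1OE stromal cells, dpMSCs 42.1% and 20.3%. With every stromal subtype given equal weight, the sum was at 0.06, P4ha2 at 0.29, Lox at 0.12, Serpinh1 at 0.04, Plod2 at 0.03 and Plod3 at 0.11, so Plod3 changed direction. The part of the makeup in the ratios was not tested further. Within subtypes, P4ha2 in mpMSCs was at 30.1 and 45.5 CPM, 0.60 (0.23 to 0.97), and was higher in cells of each sex (0.78 in Xist and 0.50 in Y cells). In dpMSCs Plod2 was at 142 and 175 CPM, 0.30 (0.14 to 0.46), with 0.11 in Xist and 0.50 in Y cells. Chondrocyte markers summed to 423 and 585 CPM in dpMSCs and to 561 and 671 in mpMSCs, and OB markers to 4167 and 3574 CPM and to 5754 and 6206, and their part in these ratios was not tested.

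ECs, the cells in which the transgene acts, had 2 members past 1.5-fold, where 18.9% of 15703 genes passed. P4ha2 was at 7.27 CPM (211 UMIs) in Control and 14.0 CPM (414 UMIs) in Dach1OE, a log2 ratio of 0.94 (0.70 to 1.19), and Lox at 8.24 (239 UMIs) and 16.9 (500 UMIs), a ratio of 1.03 (0.81 to 1.26). Both were higher in cells of each sex (P4ha2 0.54 in Xist and 1.36 in Y cells, Lox 0.88 and 1.45). Both Lox levels lay below the haematopoietic one of the same library. With the 8 EC subtypes given equal weight, P4ha2 was at -0.16 and Lox at 0.05. For P4ha2 the sign rested on a few UMIs, 6 and 4 in tip-like ECs and 5 and 0 in lymphatic ECs, and with those subtypes left out P4ha2 was at 0.53 and Lox at 0.21 with equal weight of the others, both inside the 1.5-fold line. Of the EC UMIs of Lox, aECs held 44 of 239 in Control and 319 of 500 in Dach1OE. With aECs left out, Lox was at 7.06 and 7.16 CPM, 0.02 (-0.28 to 0.32), and P4ha2 at 6.26 and 9.65 CPM, 0.62 (0.34 to 0.91), so only P4ha2 stayed past 1.5-fold. In bmECs the intervals of both genes held 0 (P4ha2 0.44, -0.16 to 1.01, and Lox 0.36, -0.22 to 0.90). In the same ECs the stromal markers, Cxcl12 among them, summed to 385 and 762 CPM and the OB markers to 129 and 196 CPM. The part of these markers in the ratios was not tested. The other 8 members lay between -0.11 (-0.15 to -0.06) for Plod1 and 0.28 (0.20 to 0.36) for Fkbp10. Some of these directions turned with equal weight of the 8 subtypes, which gave -0.36 for Plod2 (0.22 over all ECs), -0.18 for P3h1 (0.05) and -0.04 for Serpinh1 (0.16). Without tip-like and lymphatic ECs they were -0.17, -0.26 and 0.08. Over all ECs the sum over all 10 was 1671 and 1835 CPM (0.14). In haematopoietic cells, the reference class, the sum was 690 and 801 CPM, 0.22 (0.17 to 0.26).

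**Figure D4:**
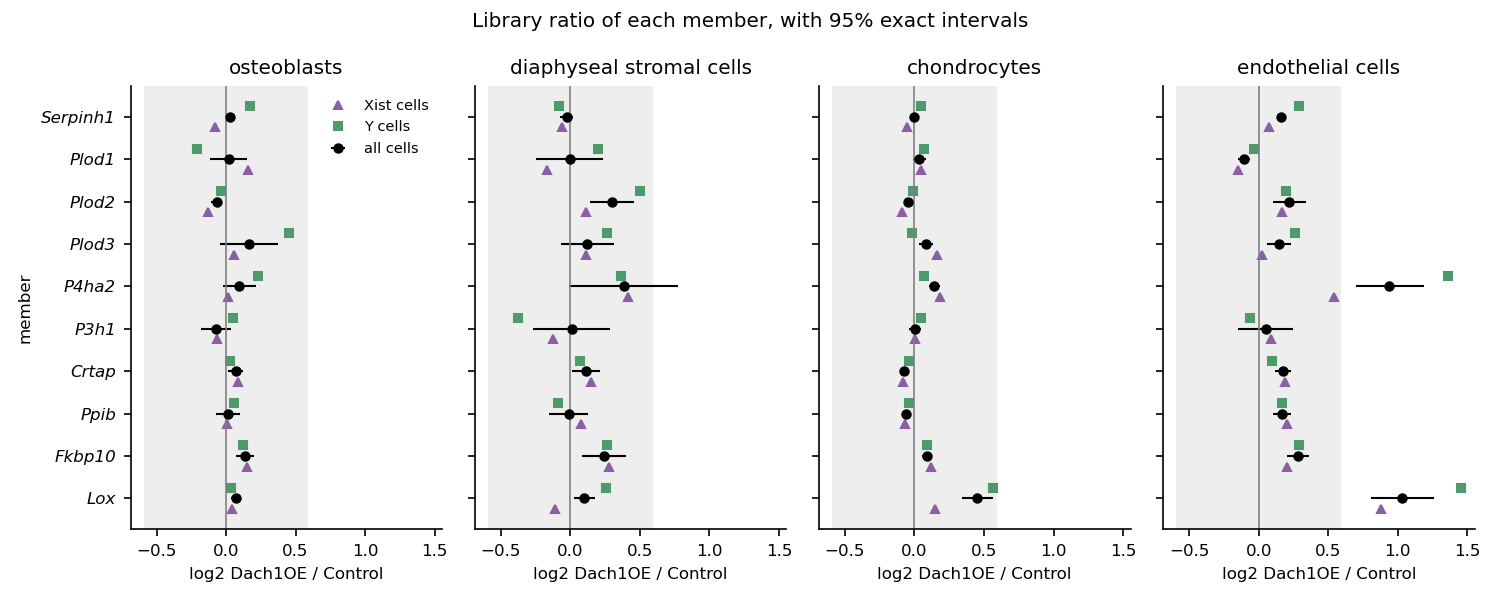
Log2 ratio of Dach1OE over Control for each member in OBs, dpMSCs, chondrocytes and ECs. Black points with exact 95% intervals are all cells, triangles cells with Xist UMIs and squares cells with Y-linked UMIs, and the grey band is within 1.5-fold; over all cells only P4ha2 (0.94) and Lox (1.03) in ECs lie outside it.

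Within EC subtypes a few member ratios were larger. In remodelling ECs (rECs) Serpinh1 was at 692 and 1077 CPM, 0.64 (0.52 to 0.76), and Plod1 at 117 and 190 CPM, 0.70 (0.40 to 1.0), both higher in cells of each sex (0.67 and 0.75 for Serpinh1, 0.58 and 1.47 for Plod1, Xist before Y). In the same rECs collagen chains took 0.746% and 1.16% of UMIs. The stromal markers, Cxcl12 among them, summed to 1135 and 1503 CPM there and the OB markers to 234 and 305 CPM. Smooth muscle markers went the other way in these rECs, at 1045 and 798 CPM. The part of the chains and markers in these ratios was not tested. In the Scgb3a1-led ECs Plod1 was lower, at 340 and 216 CPM, -0.65 (-0.94 to -0.35), and Crtap higher, at 98.0 and 155 CPM, but the Control library had only 266 such cells. Markers of other cells were lower there too, stromal ones at 500 and 281 CPM, chondrocyte ones at 774 and 456 and OB ones at 261 and 168, and their part was not tested. Tip-like ECs, with 61 Control cells, had Serpinh1 at 2123 and 1383 CPM, -0.62 (-0.77 to -0.47). Crtap in aECs was at 136 and 193 CPM, 0.50 (0.27 to 0.74). Beside it stood stromal markers, Cxcl12 among them, of 1876 and 3016 CPM and OB markers of 178 and 411 CPM, whose part was not tested. Over the 20 subtypes, 53 of 197 member ratios had intervals above 0, 17 below and 126 holding 0, with a median of 0.08. The remaining 1, P4ha2 in Scgb3a1-led ECs, had 0 UMIs in Control and so no ratio. Of the ratios 10 were at least 1.5-fold higher and 6 lower, where 7.6% and 8.18% of all gene and subtype values were. Those shares count values at 0 in Control as higher, while P4ha2 in Scgb3a1-led ECs is not among the 10. Fkbp10 had the most intervals above 0 (13, and 1 below), followed by Crtap (9 and 1) and Lox (9 and 2), whereas Plod3 and P3h1 had none on either side. Intervals narrow with more UMIs, and the share of intervals off 0 over all genes was not taken. These counts of intervals are therefore not read as a result about the members.

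The share of cells with a UMI was compared after thinning every cell to 1000 UMIs. Lox was found in 67.5% of Control (64.9 to 70.1, exact binomial) and 71.4% of Dach1OE OBs, 81.1% and 79.7% of OCYs, 43.8% and 45.9% of dpMSCs, 0.907% and 1.61% of ECs and 1.88% and 2.64% of haematopoietic cells. The haematopoietic class served as a reference and included a cluster led by Pf4 (652 and 591 cells). Whether it lacks Lox of its own was not tested. Unthinned, the shares were 99.0% and 99.3% in OBs, at a median of 7689 and 7731 UMIs per cell, and 5.46% and 6.62% in haematopoietic cells, at 4060 and 3816.5 UMIs. Plod1 was found in 24.7% and 23.2% of ECs against 7.69% and 7.62% of OBs and 3.44% and 2.47% of haematopoietic cells. The share of Lox in ECs as a class lay below that of haematopoietic cells, aECs not being counted apart here, and that of Plod1 stood well above it. Thinning left out 270 and 392 ECs and 55 and 57 haematopoietic cells with fewer UMIs, and no OB.

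Other genes of the collagen route were taken from a fixed list of 31 that act on modification, export and processing. In OBs over ECs in Control, 20 of the 30 with at least 20 UMIs were at least 2-fold higher and 3 lower, with a median log2 ratio of 1.90 beside 2.06 for the members and -1.01 for all genes, and the Dach1OE library gave 20 and 3 of 31 with 1.81. General chaperones of the endoplasmic reticulum did not share this, with none of 11 higher and 6 lower in Control and 7 lower in Dach1OE, beside 50.3% and 52.8% of all genes. Against dpMSCs in Control, 9 of the collagen route were higher and 7 lower (11 and 5 in Dach1OE), and 9 of 11 chaperones were lower (10 in Dach1OE), where 48.5% and 47.0% of all genes were lower. Of 13 collagen chains, the substrates, 10 were higher and 2 lower in Control OBs over ECs, 7 and 3 in Dach1OE. Hypertrophic over Hhip-led chondrocytes gave 2 higher and 5 lower of 30 in the route in each library, and no chaperone past the line. Over all genes it gave 1069 higher and 1305 lower of 11507 in Control, and 1306 and 1505 of 12354 in Dach1OE.

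Between libraries, the route gave 0 genes past 1.5-fold in OBs (beside 9.36% of all genes), 1 higher and 1 lower in chondrocytes (11.1%), 1 higher and 2 lower in stromal cells (18.0%) and 4 higher and 4 lower of 31 in ECs (18.9%). The EC genes with the widest ratios were Loxl2, a relative of Lox that cross-links basement membrane collagen, at 134 and 62.1 CPM (-1.11, -1.19 to -1.03), Fkbp7 at 125 and 77.2 CPM (-0.70), Tll1 (-0.62), Creb3l1, a transcription factor of the secretory route, at 12.8 and 29.3 CPM (1.2), Col5a2 at 66.8 and 118 CPM (0.81) and Fkbp14 (0.73). Of the 13 collagen chains 3 were higher in ECs and none lower, with a median of 0.53 beside 0.03 over all genes. In these ECs the stromal markers, Cxcl12 among them, summed to 385 and 762 CPM. OB markers summed to 129 and 196 CPM and chondrocyte markers to 320 and 428 CPM, and the part of these markers was not tested. In stromal cells Loxl1 (190 and 114 CPM, -0.74), Col6a1 (1122 and 634 CPM, -0.82) and P3h2 (-0.88) were lowest and Pcolce2 (0.64), Col11a1 (0.50) and Colgalt2 (0.48) highest. The makeup of ECs and of stromal cells differed between the libraries. None of these EC and stromal ratios was taken with equal weight of subtypes, so makeup and expression are not told apart. The OB genes at the extremes, all inside the 1.5-fold line, ran from Col6a2 (-0.44), Col12a1 (-0.39) and Col3a1 (-0.36) to Col4a1 (0.45, 0.17 to 0.75), Colgalt2 (0.43, -0.09 to 0.97) and Tmem38b (0.36, -0.07 to 0.80), and the intervals of Colgalt2 and Tmem38b held 0. In chondrocytes they ran from Adamts3 (-0.30), Sdf2l1 (-0.27) and Loxl1 (-0.23) to Col3a1 (0.68), P4ha3 (0.64) and Col1a2 (0.51).

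Over 40 points (20 subtypes in 2 libraries, which share depth and collagen content), the genes whose log2(CPM + 1) was most like that of a member were given by Pearson's r as a description. Plod2 was most like Kdelr3 (0.98), Hdlbp (0.97) and Pycr1 (0.95), P3h1 like Kdelr3 (0.96), Ikbip (0.95) and P3h4 (0.95), and Ppib like P4hb (0.95), Ssr2 (0.95) and Mydgf (0.93). Crtap was most like Fkbp14 (0.94), Ggcx (0.94) and Txndc5 (0.93), and Serpinh1 and Fkbp10 were like Kdelr1 (0.90 and 0.91) and Kdelr2 (0.90 and 0.91), which return escaped proteins to the endoplasmic reticulum, with Arf4 (0.90) and Sdc3 (0.91) as the remaining ones. P4ha2 was most like Yipf5 (0.91), Yif1a (0.91) and Me1 (0.90), and Plod3 like Colgalt1 (0.86), which adds sugar to hydroxylysine, Rras2 (0.86) and Slc41a1 (0.85). Lox was most like collagen chains and Scrn1 (Col1a2 0.89, Col5a2 0.88, Scrn1 0.87). Plod1 was most like Sh3glb1, Cttnbp2nl and Sema6a (0.85 each). Among the members themselves, Plod2 and P3h1 (0.97) and Serpinh1 and Fkbp10 (0.95) ran closest together, and Plod1 and Lox ran furthest apart (-0.73).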

How the data were processed

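Cells of femur and tibia, without the epiphysis, were released by collagenase and crushing, depleted of lineage-positive, CD45+ and CD117+ cells with magnetic beads, and captured for BD Rhapsody whole-transcriptome libraries, 1 per group. The deposited count tables hold, per gene and cell, the UMI counts that the authors obtained after error correction (recursive substitution error correction). Per the file headers, the BD Rhapsody WTA Analysis Pipeline 1.11 was used with GRCm38 and GENCODE vM19, intronic reads were counted and cells were called by the refined setting. Repeated PCR copies of 1 molecule are merged by its UMI, and a UMI count cannot tell how much of a cell's RNA was missed. The headers list no sample tags, and the mouse behind a cell is not known.

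The members and all gene lists were chosen with earlier results of these data known. Cells with 500 to 6000 genes and under 25% mitochondrial UMIs were kept (26466 of 28720 in Control, at a median of 3793.5 UMIs per cell, and 29317 of 32028 in Dach1OE, at 4055). Both libraries were clustered together with Seurat 5.3.0 in R 4.3.3 on 1918 variable genes, and 26 clusters were named from fixed markers. Left out were 82 variable genes found among the gene lists, cell cycle genes, Xist and Y-linked genes. Stromal cells, chondrocytes and endothelial cells were clustered again after anchor integration of the libraries. Names were thus rebuilt here, and shares may differ from the study's for that reason. Clusters with markers of a further class were left out (767 and 1030 chondrocytes, 227 and 210 stromal cells and 241 and 188 ECs, Control before Dach1OE), 589 and 470 doublet-like cells were set aside, and clusters of 2016 and 2400 cells stayed unnamed. Scrublet, as in scanpy 1.11.5, marked 6.53% and 6.6% of cells, which were kept except in an alternative. No upper growth plate cluster could be named, so the Hhip-led cluster, with 2 of 5 such markers, took its place.

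UMI counts were summed per library and cell type and divided by all UMIs of that type (CPM) with numpy 2.4.6, scipy 1.17.1 and pandas 2.3.3 under Python 3.11.15. Ratios carry exact conditional (Clopper-Pearson) intervals at 95%. A gene counted as tested with at least 20 UMIs over both sides, and as past the line at 1.5-fold between libraries or 2-fold between cell types. Both libraries enter every comparison. All 10 members were named. From the lists, the 3 highest and 3 lowest library ratios with at least 100 UMIs were named per class, and the 3 genes outside the members most like each member, among genes with at least 500 UMIs. The ratio and its interval were tested on simulated Poisson counts with known ratios, the model that the interval assumes. Clustering, naming and the spread between mice were not simulated. Alternatives covered raw UMIs, the limits on cells, depth, doublets, sex, resolution, gating of single cells, weights of cells and subtypes, scaling and the minimum count of a gene.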

Additional observations from a re-analysis of the deposited data

Results flagged for a closer look

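Each of the following had ratios of opposite sign in different sets of cells, and none of these differences was tested, since each set came from 1 library per group. Serpinh1 in OBs had a log2 ratio of Dach1OE over Control of -0.078 in Xist cells and 0.17 in Y cells. In chondrocytes Serpinh1 showed the same split at a smaller size, at -0.050 and 0.05. Plod2 in the Mmp13-led hypertrophic cluster was at -0.61 in Xist cells and 0.58 in Y cells, from 110 and 132 cells in all. Serpinh1 was at -0.62 in tip-like ECs, of which Control had 61, and at 0.64 in rECs. Plod1 was at -0.65 in the Scgb3a1-led ECs, of which Control had 266, and at 0.70 in rECs. P4ha2 was at -2.33 in tip-like ECs, from 6 UMIs in Control and 4 in Dach1OE, while it was higher in Dach1OE in mpMSCs (0.60), proliferating ECs (1.61) and fibroblasts (0.61). Lox was at -1.38 in rECs and at 1.19 in aECs and 1.19 in proliferating chondrocytes, and all of these levels but that of Dach1OE aECs lay below the haematopoietic level of the same library.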

How the results depend on the processing

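The sum over the members, as log2 ratio of Dach1OE over Control, was 0.20 in stromal cells, 0.03 in OBs, -0.01 in chondrocytes and 0.14 in ECs, beside 0.22 in haematopoietic cells. Stromal cells gave 0.18 with raw UMIs, 0.11 with cells of at least 4000 UMIs, 0.14 and 0.23 in Xist and Y cells, 0.24 as a mean over cells, 0.40 less the median gene (-0.20) and 0.056 with equal weight of subtypes. OBs gave 0.045 with raw UMIs, -0.037 and 0.10 in Xist and Y cells, 0.0625 with gated cells and 0.046 less the median. Chondrocytes gave -0.041 and 0.030 in Xist and Y cells and 0.014 less the median. ECs gave 0.19 with cells of at least 4000 UMIs, 0.074 and 0.22 in Xist and Y cells, 0.10 as a mean over cells, 0.10 less the median and -0.0069 with equal weight of subtypes. The number of members past 1.5-fold went from 0 to 1 in stromal cells less the median (P4ha2) and in chondrocytes with gated cells (Lox, 0.64), and from 2 in ECs to 1 in Xist cells and 0 with equal weight of subtypes. The share of all genes past 1.5-fold, with genes of at least 1 UMI, was 38.9% in stromal cells, 34.7% in OBs, 33.5% in chondrocytes and 39.7% in ECs, and with at least 100 UMIs 2.02% in OBs and 3.51% in chondrocytes. Of 236 values of 22 member ratios past 1.5-fold, 229 kept their sign. The exceptions were Plod2 (0.28 with 1000 to 6000 genes, 0.61 at resolution 0.8) and P3h1 (0.0675 with 1000 to 6000 genes) in Scgb3a1-led ECs, P3h1 in rECs (-0.11 under 10% mitochondrial UMIs, -0.45 in Y cells) and Fkbp10 in lymphatic ECs (-0.15 in Xist cells, -0.12 as a mean over cells). The cause was not tested. In OBs over ECs, 7 members stayed at least 2-fold higher in every alternative other than those named next. After the data were seen, chondrocyte clusters with many Scrublet marks were left out, which changed no count, the median was taken off OB over EC ratios, which gave 8 members in both libraries, collagen chains were left out of totals, which gave 8 in Control and 7 in Dach1OE, and tip-like and lymphatic ECs were left out of the equal weight, which gave a sum of 0.078 and 0 members past 1.5-fold in ECs, while aECs left out gave 0.13 and 1 member (P4ha2). Shares of cells with a UMI were higher at 2000 UMIs per cell and without thinning for every member, class and library, and at 2000 UMIs ECs still led OBs for Plod1 and OBs led ECs for Lox. No paired analysis was possible because each group had 1 library. Depth limited rare genes in small clusters, as for P4ha2, with 6 and 4 UMIs in tip-like ECs and 5 and 0 in lymphatic ECs.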

Other observations

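Fibroblasts (1199 Control and 1249 Dach1OE cells) made up of a Clec3b-led and a Tnmd-led cluster, the latter with a tendon marker, held less Lox in Dach1OE, at 275 and 199 CPM, a log2 ratio of -0.47 (-0.58 to -0.36), and the ratio was -0.63 in Xist cells and -0.60 in Y cells. Plod2 was higher there, at 639 and 772 CPM (0.27), as was P4ha2, at 64.4 and 98.4 CPM, 0.61 (0.42 to 0.81), with 0.42 in Xist and 0.91 in Y cells. In the Tnmd-led cluster Lox was at 353 and 245 CPM (-0.53) and Plod2 at 984 and 1320 CPM (0.42), so Plod2 and Lox differed in opposite directions between the libraries. Over all fibroblasts Plod1 (150 and 145 CPM), Plod3 (83.8 and 86.8 CPM) and P3h1 (70.7 and 74.7 CPM) had intervals that held 0. Pericytes (598 and 1230 cells) held Fkbp10 at 110 and 142 CPM, 0.37 (0.14 to 0.60), and Crtap at 241 and 304 CPM, 0.34 (0.18 to 0.49), while their Lox, at 172 and 180 CPM, had a ratio of 0.06 (-0.13 to 0.25). Smooth muscle cells held Lox at 121 and 156 CPM, 0.37 (0.12 to 0.62). There was no replicate for any of these values.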
